A study of Mus musculus with 4 samples.

Results

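Serine-threonine phosphatases and dual-specificity phosphatases were examined in the livers of mice that carry the early genes of the virus SV40, large T and small t. The members were the probe sets whose only gene symbol on the platform's annotation began with Ppp1 to Ppp6 or with Dusp. The rule found 48 of the 12422 probe sets on the array that are not array controls, and they stand for 40 of the 8251 genes named there. By class these were 9 PP2A probe sets (Ppp2), 16 of PP1 (Ppp1), 4 of calcineurin (Ppp3), 6 of the related phosphatases Ppp4 to Ppp6, and 13 of the Dusp family.

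Total liver RNA was hybridised to Affymetrix MG_U74Av2 arrays, 1 array per sample. The PEPCK-TAg group (2 arrays) came from transgenic mice in which the promoter of the gluconeogenic enzyme PEPCK drives the viral early region. That promoter is active in hepatocytes and responds to a diet rich in protein and poor in carbohydrate. The wild-type group (2 arrays) carries no transgene. All 4 samples came from male B6SJL hybrids aged 50 to 66 days, fed for 4 weeks after weaning on a diet of 65% protein and 10% carbohydrate. The design text calls the arrays of a group duplicate measurements, and no source used here says that they came from separate animals. The p-values therefore measure the spread between these arrays, which may be technical. The array holds no probe set used here for the viral proteins, so the transgene itself was not measured.

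Protein phosphatases of the Ppp family work as a catalytic subunit held by regulatory subunits that choose the substrate. PP2A joins a catalytic subunit, a scaffold and one of many B-type subunits, and SV40 small t binds the scaffold and displaces B-type subunits. PP1 takes its substrates through targeting subunits and is held back by inhibitor proteins, and calcineurin is switched on by calcium and calmodulin. Most typical dual-specificity phosphatases switch off MAP kinases, each with its own preference among these kinases.

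The 4 genes with a probe set that changed in the test described below were Dusp8, Ppp1cc and Ppp2ca, which rose, and Dusp6, which fell. Their promoters are shown because these are the genes on which the results turn. Each run holds the 250 bases before the gene's start in the RefSeq promoter table, mouse build GRCm38.p6, 5′ to 3′ on the gene's strand. Capitals mark the E2F core GGCGGGA, a motif of factors that the RB proteins restrain, and the cyclic AMP response half-site TGACG, each sought on both strands. The palindrome TGACGTCA holds the half-site on both strands in overlap.
Dusp8, chr7:142095285-142095534, minus strand: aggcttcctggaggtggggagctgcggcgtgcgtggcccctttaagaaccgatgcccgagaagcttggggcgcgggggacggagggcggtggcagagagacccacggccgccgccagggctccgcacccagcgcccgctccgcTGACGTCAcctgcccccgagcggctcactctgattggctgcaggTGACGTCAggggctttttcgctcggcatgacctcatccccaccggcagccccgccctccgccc
Ppp1cc, chr5:122158025-122158274, plus strand: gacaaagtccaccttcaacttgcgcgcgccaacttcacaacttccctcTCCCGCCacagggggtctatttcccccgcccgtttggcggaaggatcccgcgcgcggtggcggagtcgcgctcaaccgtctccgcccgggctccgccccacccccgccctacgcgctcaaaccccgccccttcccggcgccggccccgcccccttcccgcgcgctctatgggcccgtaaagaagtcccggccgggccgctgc
Ppp2ca, chr11:52098574-52098823, plus strand: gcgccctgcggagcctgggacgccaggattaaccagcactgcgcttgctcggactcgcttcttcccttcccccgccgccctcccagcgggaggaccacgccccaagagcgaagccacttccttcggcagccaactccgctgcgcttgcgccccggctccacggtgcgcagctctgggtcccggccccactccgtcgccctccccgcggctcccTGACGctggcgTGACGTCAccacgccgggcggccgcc
Dusp6, chr10:99262981-99263230, plus strand: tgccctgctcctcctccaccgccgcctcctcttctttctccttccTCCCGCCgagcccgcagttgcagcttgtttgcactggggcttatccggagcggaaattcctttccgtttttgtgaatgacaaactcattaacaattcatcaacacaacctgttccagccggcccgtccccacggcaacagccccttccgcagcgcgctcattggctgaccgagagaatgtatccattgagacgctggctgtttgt

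The Dusp8 run held 4 half-sites, all within 2 palindromes, and the Ppp2ca run held 3, a pair of them in a palindrome. Neither run held an E2F core. The Ppp1cc and Dusp6 runs each held 1 E2F core and 0 half-sites, so a gene that rose and a gene that fell shared this pattern. Among all 32851 promoters of the table, 17.8% held the half-site and 9.75% held the E2F core. Of 36 promoters found for 30 of the member genes, 12 held the half-site and 11 the E2F core, or 33.3% and 30.6%. GC content was 71.6% in the Dusp8 run, 72.0% in Ppp1cc, 73.6% in Ppp2ca and 56.4% in Dusp6. It is not given here for all promoters, and its part in the motif shares was not tested. A match is a description of letters and not of a bound site.

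Median signals were 77 and 84.7 in PEPCK-TAg liver and 68.5 and 66.6 in wild-type liver, on the linear scale of the deposited values. For actin the ratios of 3′ to 5′ signal, a gauge of RNA quality, were 3.82 and 3.14 in PEPCK-TAg liver. In wild-type liver they were 4.33 and 3.41. For Gapdh they were 4.57 and 2.9 in PEPCK-TAg liver and 5.35 and 3.8 in wild-type liver. The part of RNA quality in the results was not tested. Hepatocyte markers gave high signals on every array, with a sum over 16 probe sets of 69831 and 87235 in PEPCK-TAg liver and 126048 and 131043 in wild-type liver, and 4 of the 16 fell. Of 17 tested probe sets of proliferating-cell markers 15 rose, as did 12 of 19 for myeloid cells and 11 of 14 for erythroid cells. Over all probe sets tested 9.1% rose and 3.4% fell. Of 5 tested bile duct probe sets 4 rose, from the 3 genes Prom1, Anxa4 and Cldn7, and 6 more were not tested. The remaining tested probe set, of Cftr, gave a log2 difference of -0.73. Of the untested markers Krt19 read 1.4 to 3.9 over all arrays. Krt7 read 13.7 and 11.5 against 30 and 8.2, and Epcam 1.8 and 3.9 against 9.1 and 13.8, PEPCK-TAg first. Of 7 tested lymphocyte probe sets 0 rose and 2 fell, both of Zap70, with a median log2 difference of -0.84. Endothelial markers gave 1 rise and 0 falls of 13, and stellate or fibroblast markers 1 rise and 1 fall of 11. Summed proliferation markers read 13830 and 12770 in PEPCK-TAg liver and 1498 and 1225 in wild-type liver. Myeloid sums were 11148 and 15063 against 2272 and 2198, and erythroid sums 11865 and 17118 against 4208 and 4571, PEPCK-TAg first. On both wild-type arrays 6 of the 21 proliferation probe sets and 10 of the 30 myeloid probe sets were at or under the floor of 10.6 described next, S100a9 and 1 of the Mki67 probe sets among them. On both PEPCK-TAg arrays 1 and 4 were. Of the erythroid probe sets 4 of 17 were at the floor in wild-type liver and 0 in PEPCK-TAg liver, and of the hepatocyte probe sets 0 were in either. Their part in the results below was not tested, and in whole liver a change in the number of cells of a type and a change in RNA per cell cannot be told apart. The PEPCK-TAg arrays shared a chip lot that no wild-type array had, so lot cannot be told apart from group.

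Signals were compared after raising those under 10.6 to that floor, and testing was limited to probe sets over 41.3 on 2 or more of the 4 arrays. This passed 37 of the 48 members, and the 11 others are given by their signals only. A probe set dim in a group could pass this filter through the other group alone. Both Dusp8 probe sets passed through the PEPCK-TAg arrays alone. So did Cip2a, Myc, Pygb, Ddit3, Wnk1 161270_i_at, Rcan3, Cdkn3, Cdc25c 102935_at, Ptpn22 and Ptprc among the called probe sets of the lists below. Of the markers, Mki67 99457_at, S100a9 and others of the proliferating, myeloid, erythroid and bile duct lists did too. Eya3 and Zap70 93661_at passed through the wild-type arrays alone. The counts of rises and falls hold such probe sets, so the filter bears on these counts. In limma's moderated test across 7877 probe sets, with Benjamini-Hochberg adjustment, 5 of the 37 passed an adjusted p of 0.05, 4 higher in PEPCK-TAg liver and 1 lower. That is 13.5% of the members tested, and 12.5% of all probe sets tested passed (9.1% higher and 3.4% lower), so the members were called at about the background share. The median log2 difference was 0.24 over the 37 members and 0.05 over all probe sets tested.

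The largest difference among the members was that of Dusp8, a phosphatase of the JNK and p38 kinases. Its probe set 92362_at read 135.1 and 111.6 in PEPCK-TAg liver and 7.6 and 7.8 in wild-type liver. A further Dusp8 probe set, 161171_at, read 93.3 and 87.7 in PEPCK-TAg liver and 8.4 and 4.1 in wild-type liver. Both wild-type arrays lay under the floor in both probe sets, and the groups did not overlap. The rises were at least 11.6-fold and at least 8.54-fold (log2 differences 3.54 ± 0.40 SE and 3.09 ± 0.42 SE, limma adjusted p = 0.0035 and 0.00632, n = 2 arrays in each group throughout). With both wild-type arrays raised to the floor their spread is 0, and the errors printed are limma's moderated ones, which draw on the spread of the other probe sets. Without the intensity trend they were 0.264 and 0.252. A floor at the 40th percentile gave log2 differences of 1.57 and 1.13. When either PEPCK-TAg array was dropped Dusp8 went untested, since only 1 array then exceeded the filter level.

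Dusp6, a cytoplasmic phosphatase of MAP kinases that growth factor signalling induces, went the other way. It read 254.7 and 153.6 in PEPCK-TAg liver and 580.1 and 972.6 in wild-type liver. The arrays of each group spread widely, and the highest PEPCK-TAg signal was still under the lowest wild-type signal. The fall was 3.80-fold (log2 difference -1.93 ± 0.37 SE, adjusted p = 0.0207). It was -1.19 between the arrays scanned on the same day, PEPCK-TAg 1 and wild-type 1. It ranged from -2.30 to -1.55 with an array left out, and the adjusted p was 0.0655 when PEPCK-TAg 1 was dropped and 0.157 when PEPCK-TAg 2 was. The second Dusp6 probe set, 161536_r_at, read 6.4 and 14.4 in PEPCK-TAg liver and 3.0 and 25.6 in wild-type liver and was not tested.

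No other Dusp probe set passed the test. Dusp12, an atypical member, read 230.4 and 231.8 in PEPCK-TAg liver and 165.9 and 117.0 in wild-type liver (log2 difference 0.73 ± 0.29 SE, adjusted p = 0.150). Its groups did not overlap, and its unadjusted p was 0.0423. Dusp2, a nuclear phosphatase known from activated lymphocytes, read 95.2 and 125.2 in PEPCK-TAg liver and 70.7 and 91.8 in wild-type liver (0.44 ± 0.33 SE). Dusp11, which removes phosphates from RNA ends, read 187.3 and 223.1 in PEPCK-TAg liver and 165.9 and 171.2 in wild-type liver (0.28 ± 0.26 SE). These pairs also did not overlap, with gaps that were small against their errors.

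Dusp1, an inducible nuclear phosphatase of all 3 MAP kinase branches, read 859.9 and 547.6 in PEPCK-TAg liver and 369.7 and 912.4 in wild-type liver. The wild-type arrays enclosed both PEPCK-TAg arrays, and the log2 difference of 0.24 ± 0.46 SE was -0.41 without wild-type 1 and 0.89 without wild-type 2. Dusp16, which prefers JNK, read 365.3 and 302.0 in PEPCK-TAg liver and 374.0 and 346.7 in wild-type liver at 97740_at (-0.12 ± 0.25 SE). Dusp19, an atypical member, read 143.2 and 106.2 in PEPCK-TAg liver and 124.0 and 140.9 in wild-type liver (-0.10 ± 0.30 SE). In these 3 genes the groups overlapped. Dusp9 was not tested at either probe set, with signals from 2.8 to 26.5 in PEPCK-TAg liver and from 1.7 to 34.6 in wild-type liver. The second Dusp16 probe set, 161181_f_at, read 21.9 and 47.3 in PEPCK-TAg liver and 29.2 and 4.3 in wild-type liver and was not tested either.

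**Figure D1:**
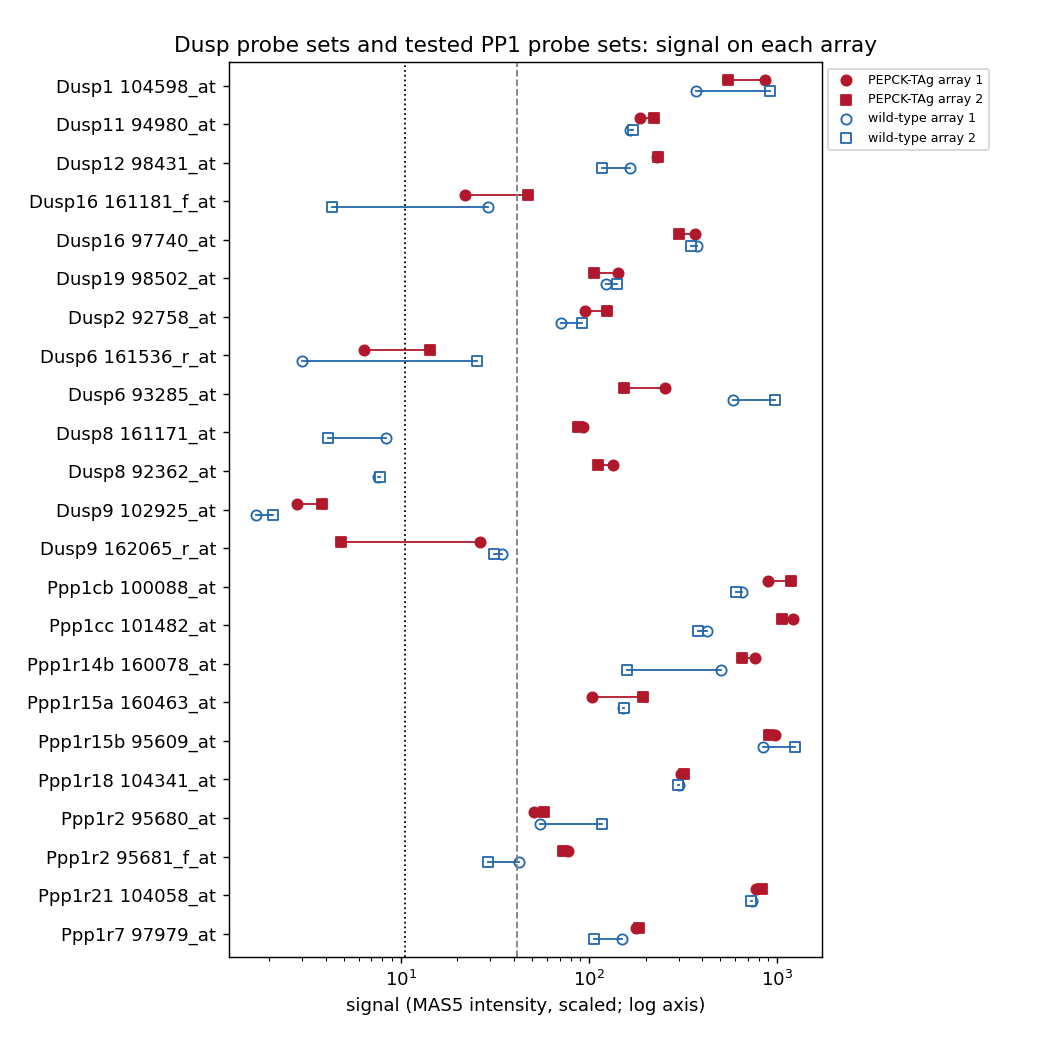
Signal of each Dusp probe set and each tested PP1 probe set on a log axis, with filled red marks for the PEPCK-TAg arrays and open blue marks for the wild-type arrays (circles array 1, squares array 2). The dotted line is the floor of 10.6 and the dashed line the filter level of 41.3, and both Dusp8 probe sets lie above the filter level on the PEPCK-TAg arrays and under the floor on the wild-type arrays.

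Among PP1 genes, the catalytic subunit Ppp1cc rose. It read 1211.4 and 1067.4 in PEPCK-TAg liver and 422.4 and 381.3 in wild-type liver. The arrays of each group lay close together and the groups stood well apart. The rise was 2.83-fold (log2 difference 1.5 ± 0.23 SE, adjusted p = 0.00973) and kept between 1.41 and 1.59 with an array left out, although the adjusted p was 0.133 when PEPCK-TAg 1 was dropped and 0.0961 when PEPCK-TAg 2 was. The catalytic subunit Ppp1cb read 897.9 and 1192.3 in PEPCK-TAg liver and 652.0 and 608.2 in wild-type liver (0.72 ± 0.25 SE, adjusted p = 0.111). It did not overlap between groups and did not pass.

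The inhibitor genes of PP1 did not pass the test. Ppp1r14b, an inhibitor that acts on PP1 and myosin phosphatase, read 761.3 and 652.2 in PEPCK-TAg liver and 500.7 and 159.1 in wild-type liver. Its log2 difference of 1.32 ± 0.51 SE (adjusted p = 0.143) was 2.15 without wild-type 1 and 0.49 without wild-type 2, so its size rested on wild-type 2. Inhibitor 2, Ppp1r2, gave a positive and a negative difference at its probe sets. At 95681_f_at it read 77.5 and 72.5 in PEPCK-TAg liver and 42.3 and 29.3 in wild-type liver (1.09 ± 0.38 SE, adjusted p = 0.113), and it passed with a floor at the 40th percentile (0.84, adjusted p = 0.0486). At 95680_at it read 50.9 and 57.8 in PEPCK-TAg liver and 54.9 and 118.1 in wild-type liver (-0.57 ± 0.45 SE, adjusted p = 0.433). The negative value rested on wild-type 2, being -1.12 without wild-type 1 and -0.02 without wild-type 2. The suffix of 95681_f_at marks probes that may match related transcripts. Inhibitor 1, Ppp1r1a, was too dim to be tested, at 6.9 and 5.3 in PEPCK-TAg liver and 23.1 and 23.9 in wild-type liver.

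The other tested partners of PP1 did not pass the test. Ppp1r15a and Ppp1r15b, which bring PP1 to the initiation factor eIF2 alpha in the stress response, gave log2 differences of -0.10 ± 0.36 SE and -0.12 ± 0.27 SE. Ppp1r15a read 104.5 and 194.6 in PEPCK-TAg liver and 152.7 and 152.9 in wild-type liver, and Ppp1r15b 973.0 and 910.9 in PEPCK-TAg liver and 838.9 and 1239.4 in wild-type liver. The groups overlapped in both genes, and the value of Ppp1r15a was 0.35 without PEPCK-TAg 1 and -0.55 without PEPCK-TAg 2. Ppp1r7, the PP1 partner known as SDS22, read 177.8 and 183.7 in PEPCK-TAg liver and 149.1 and 106.6 in wild-type liver, without overlap (0.52 ± 0.30 SE, adjusted p = 0.286). Dropping wild-type 1 gave 0.76 and dropping wild-type 2 gave 0.28. Ppp1r18, an actin-associated partner, and Ppp1r21, an endosomal protein, gave 0.07 ± 0.24 SE and 0.13 ± 0.22 SE. Their 95% intervals ran from -0.49 to 0.64 and from -0.40 to 0.66. The glycogen-targeting subunit Ppp1r3c read 23.8 and 28.9 in PEPCK-TAg liver and 21.2 and 61.1 in wild-type liver and was not tested. Nor were Ppp1r12c of the myosin phosphatase, at 2.1 to 8.0 in PEPCK-TAg liver and 2.2 to 7.3 in wild-type liver over its 2 probe sets, and Ppp1r17, at 1.7 to 44.9 and 1.5 to 36.0.

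PP2A, the phosphatase that small t binds, had all 9 of its probe sets tested, and 1 passed, higher in PEPCK-TAg liver. The catalytic subunit Ppp2ca read 248.4 and 219.8 in PEPCK-TAg liver and 120.6 and 89.3 in wild-type liver. Both PEPCK-TAg arrays exceeded both wild-type arrays. The rise was 2.25-fold (log2 difference 1.17 ± 0.29 SE, adjusted p = 0.0472), close to the threshold. It lay between 0.95 and 1.39 with an array left out, and the adjusted p was 0.238 without PEPCK-TAg 1, 0.176 without PEPCK-TAg 2, 0.0802 without wild-type 2 and 0.0119 without wild-type 1. Under quantile normalization the log2 difference was 0.90 and the call was lost.

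The other catalytic subunit, Ppp2cb, read 663.0 and 834.2 in PEPCK-TAg liver and 496.2 and 268.3 in wild-type liver. These groups did not overlap, but the wild-type arrays lay far apart. The log2 difference was 1.03 ± 0.34 SE (adjusted p = 0.103), with 1.47 without wild-type 1 (adjusted p = 0.00264) and 0.58 without wild-type 2. The 95% interval of Ppp2cb ran from 0.20 to 1.85 and that of Ppp2ca from 0.47 to 1.87, so the data do not separate the catalytic isoforms.

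The scaffold subunits gave differences at or under 0. Ppp2r1a read 541.2 and 553.6 in PEPCK-TAg liver and 786.6 and 958.9 in wild-type liver. Both PEPCK-TAg arrays lay under both wild-type arrays (log2 difference -0.67 ± 0.23 SE, adjusted p = 0.115, unadjusted p = 0.0266), and the value was -0.81 to -0.52 with an array left out. Ppp2r1b read 116.8 and 112.3 in PEPCK-TAg liver and 117.5 and 115.4 in wild-type liver. These 4 signals lay close together (-0.02 ± 0.28 SE, 95% interval -0.69 to 0.64).

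No B-type subunit passed the test. Ppp2r5a of the B56 family read 2322.6 and 2082.2 in PEPCK-TAg liver and 2001.0 and 1486.6 in wild-type liver (0.35 ± 0.24 SE). Ppp2r5d, also of the B56 family, read 138.2 and 127.0 in PEPCK-TAg liver and 102.8 and 91.8 in wild-type liver (0.45 ± 0.29 SE). Neither overlapped between groups. Ppp2r5c, the B56 gamma subunit, read 611.6 and 512.7 in PEPCK-TAg liver and 575.8 and 640.6 in wild-type liver, with overlap (-0.12 ± 0.24 SE). The B55 subunits were dim and spread widely. Ppp2r2a read 32.2 and 53.3 in PEPCK-TAg liver and 7.5 and 66.7 in wild-type liver (0.64 ± 0.86 SE), and Ppp2r2b read 34.8 and 57.0 in PEPCK-TAg liver and 42.1 and 10.2 in wild-type liver (1.08 ± 0.72 SE). The wild-type arrays of these genes crossed the floor, so the data place little limit on either.

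**Figure D2:**
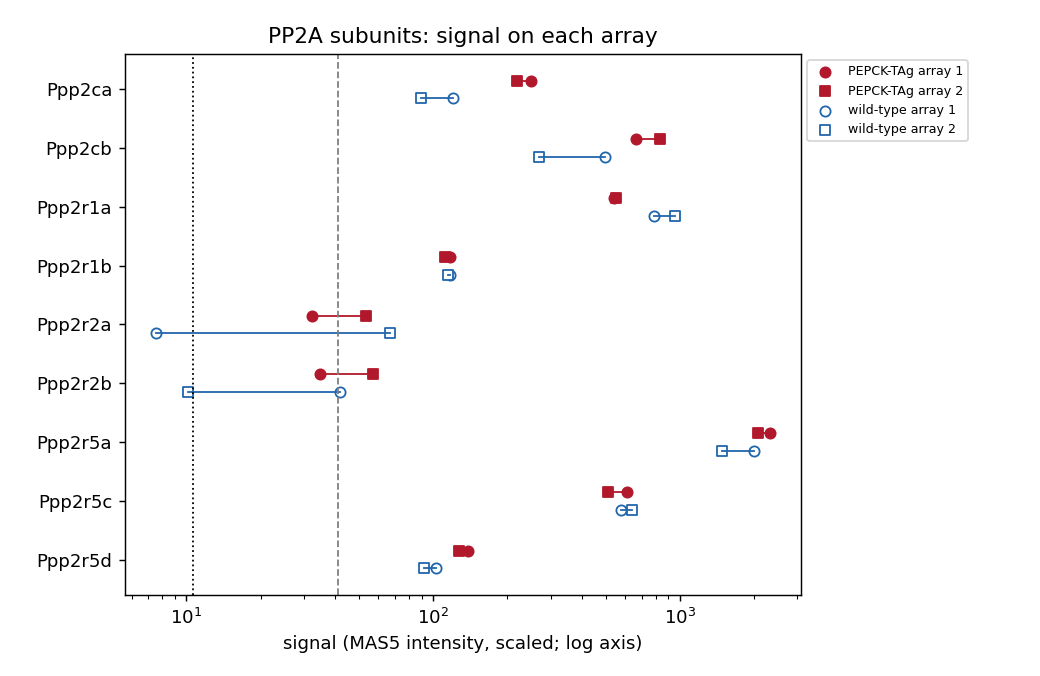
Signal of the 9 PP2A probe sets on a log axis, with filled red marks for the PEPCK-TAg arrays and open blue marks for the wild-type arrays (circles array 1, squares array 2). The dotted line is the floor of 10.6 and the dashed line the filter level of 41.3. Ppp2ca and Ppp2cb lie to the right in PEPCK-TAg liver and Ppp2r1a to the left, and the B55 genes Ppp2r2a and Ppp2r2b spread across the filter level.

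Calcineurin subunits did not pass the test, 0 of 3 in limma's moderated test and also 0 of 3 at an unadjusted p of 0.05. Of all 7877 probe sets tested 2394 had an unadjusted limma p under 0.05, and 3 probe sets are few to set beside that. The catalytic subunit Ppp3ca read 375.2 and 354.5 in PEPCK-TAg liver and 311.6 and 170.7 in wild-type liver (log2 difference 0.66 ± 0.34 SE, adjusted p = 0.243). The calcium-binding subunit Ppp3r1 read 251.5 and 364.5 in PEPCK-TAg liver and 356.3 and 990.4 in wild-type liver (-0.97 ± 0.49 SE, adjusted p = 0.235). Both values rested on wild-type 2: without wild-type 1 they were 1.09 (adjusted p = 0.0237) and -1.71 (adjusted p = 0.00119), and without wild-type 2 they were 0.23 and -0.23. Ppp3cb, a further catalytic subunit, read 31.6 and 56.4 in PEPCK-TAg liver and 37.2 and 57.4 in wild-type liver (-0.13 ± 0.47 SE). The catalytic subunit Ppp3cc was not tested, at 25 and 33.8 in PEPCK-TAg liver and 17.0 and 3.8 in wild-type liver.

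The phosphatases Ppp4 to Ppp6 likewise gave 0 calls of 6 probe sets in limma's test and 0 at an unadjusted p of 0.05. Over all probe sets tested 2394 of 7877 passed that unadjusted p, as given above. The catalytic subunit Ppp4c read 711.4 and 740.1 in PEPCK-TAg liver and 811.3 and 350.6 in wild-type liver (0.44 ± 0.40 SE), or 1.05 without wild-type 1 (adjusted p = 0.0191) and -0.16 without wild-type 2. Its partner Ppp4r2 read 97.8 and 97 in PEPCK-TAg liver and 125.6 and 107.1 in wild-type liver (-0.25 ± 0.29 SE). The sign of Ppp4c thus depended on which wild-type array was used. Ppp5c, a phosphatase that works with the chaperone Hsp90, read 70.7 and 47.1 in PEPCK-TAg liver and 59.4 and 116.3 in wild-type liver (-0.53 ± 0.45 SE), or -1.01 without wild-type 1, -0.04 without wild-type 2 and 0.25 within the shared scan day. Ppp6c read 247.9 and 263.3 in PEPCK-TAg liver and 253.1 and 237.0 in wild-type liver at 103947_at (0.06 ± 0.25 SE, and -0.15 under quantile normalization). Its further probe set 160821_r_at spread from 103.8 to 295.0 within wild-type liver around 171.5 and 234.7 in PEPCK-TAg liver (0.20 ± 0.50 SE). The regulatory subunit Ppp6r3 read 803.5 and 871.1 in PEPCK-TAg liver and 1058.3 and 874.2 in wild-type liver (-0.20 ± 0.23 SE), a pair of groups that did not overlap by a margin far under its error.

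**Figure D3:**
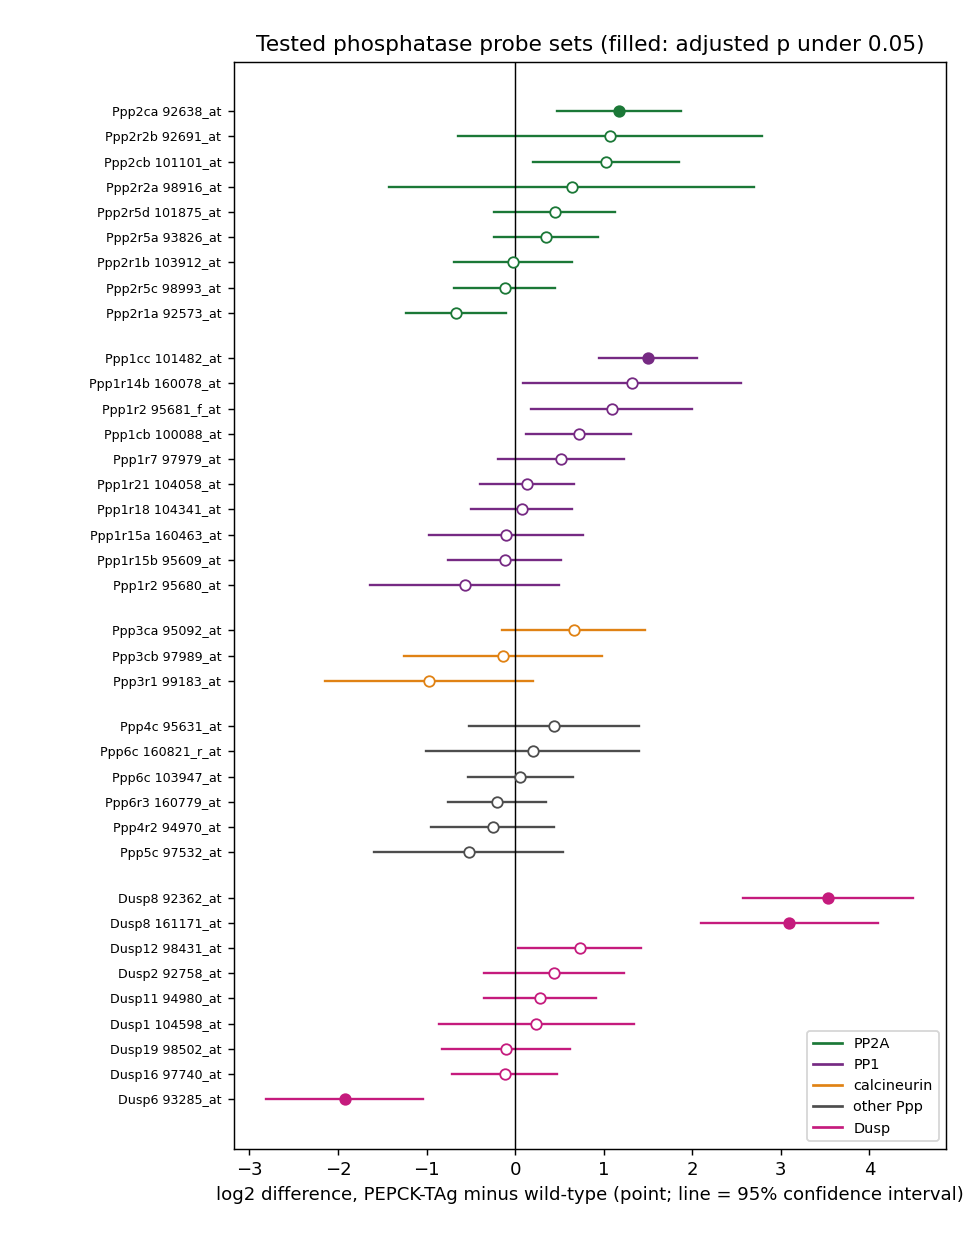
Log2 difference, PEPCK-TAg minus wild-type, of the 37 tested members by class, with limma's 95% confidence interval as a line and filled points for an adjusted p under 0.05. The filled points are Ppp2ca, Ppp1cc and both Dusp8 probe sets to the right of 0 and Dusp6 to the left.

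Set side by side, the PP2A class did not stand apart from the others by its counts. Calls were 1 of 9 for PP2A, 1 of 10 for PP1, 0 of 3 for calcineurin, 0 of 6 for Ppp4 to Ppp6 and 3 of 9 for Dusp, the last from 2 genes. Of all probe sets tested 12.5% were called, and classes of 3 to 10 probe sets are few to set beside that. Class medians of the log2 difference were 0.45 for PP2A, 0.33 for PP1, -0.13 for calcineurin, -0.07 for Ppp4 to Ppp6 and 0.28 for Dusp, beside 0.05 for all probe sets tested. The PP2A median was 0.26 without wild-type 1, where Ppp2r2b went untested, and 0.11 without wild-type 2, where Ppp2r2a did. It was 0.22 within the pair of arrays scanned on the same day, PEPCK-TAg 1 and wild-type 1. The calcineurin median, over 3 probe sets, turned to 0.29 without PEPCK-TAg 1 and was -0.44 without wild-type 1. The Dusp median was -0.08 without PEPCK-TAg 1, where Dusp8 went untested. No class was tested against another, so the medians are descriptions with a few members each.

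Catalytic and regulatory subunits were also summarised apart, a grouping made after the data were seen and not tested. Of 10 tested catalytic probe sets of the Ppp genes, 8 had a positive log2 difference, with a median of 0.55, and 2 passed (Ppp1cc and Ppp2ca). The 8 hold Ppp6c at both of its probe sets, and Ppp4c, which was negative without wild-type 2. Of 18 regulatory probe sets, 9 were positive and 9 negative, with a median of 0.03, and 0 passed in limma's test. Over all probe sets tested 4179 of 7877 were positive and 985 (12.5%) passed.

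The groups did not overlap in 17 members that were higher in PEPCK-TAg liver and in 4 that were lower, of the 37 tested. That is 45.9% and 10.8%. Of all probe sets tested 59.8% did not overlap, 33.3% higher and 26.5% lower. The members' replicate spread was uneven: the arrays of a group differed by over 2-fold in 0 of 37 members within PEPCK-TAg liver and in 8 of 37 within wild-type liver. Over all probe sets tested such gaps made up 6.2% within PEPCK-TAg liver and 10.6% within wild-type liver. The wild-type arrays came from different chip lots and had been scanned on different days and on scanners of different types. The PEPCK-TAg arrays shared a lot and had been scanned on different days and on 1 type. The part of lot, day and scanner in these gaps was not tested.

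**Figure D4:**
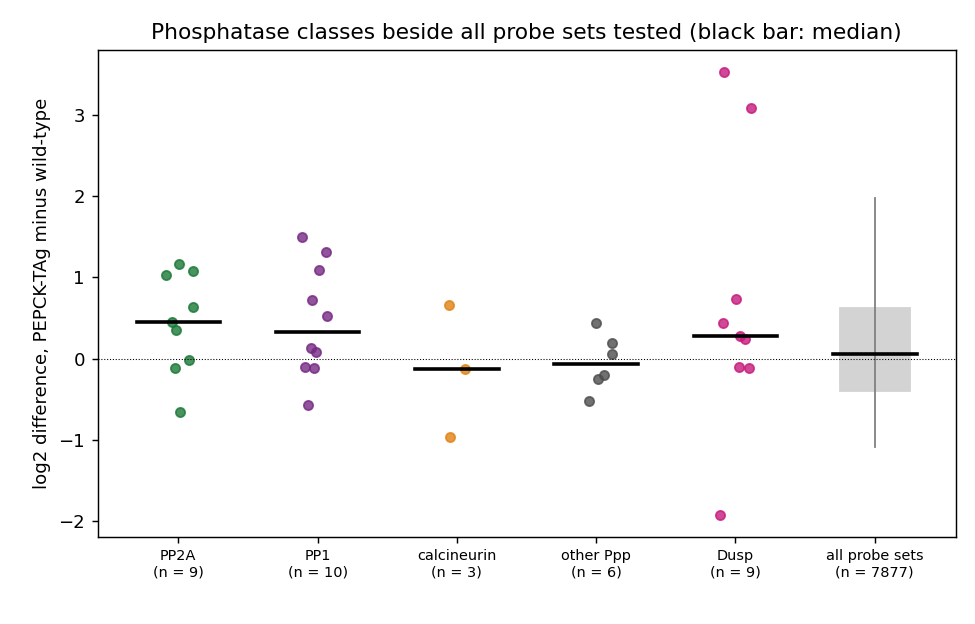
Log2 difference, PEPCK-TAg minus wild-type, of each tested member (points) by class, with the class median as a black bar. The rightmost column shows all 7877 probe sets tested, with the middle 50% as a grey box from -0.40 to 0.62, the range from the 5th to the 95th percentile as a line from -1.09 to 1.98, and the median of 0.05. Both Dusp8 points lie above that line and the Dusp6 point below it.

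Partners of PP2A outside the Ppp symbols were read from a list of 26 genes, of which 15 were tested at 21 probe sets. Of these probe sets 5 rose (23.8%) and 0 fell, with a median log2 difference of 0.54. The shares for this list and those that follow stand beside 9.1% higher and 3.4% lower over all probe sets tested. The largest rise was in Cip2a, an inhibitor of PP2A that protects MYC and is abundant in dividing cells. It read 267.4 and 172.8 in PEPCK-TAg liver and 4.2 and 13.5 in wild-type liver, at least 18-fold higher (4.17 ± 0.40 SE, adjusted p = 0.00219). Anp32a and Anp32b belong to a family of acidic nuclear proteins that includes a PP2A inhibitor. Anp32b read 2449.8 and 2569.1 in PEPCK-TAg liver and 903.2 and 692.4 in wild-type liver, a 3.17-fold rise. Anp32a rose 2.06-fold at 104390_at (595.2 and 597.9 against 260.2 and 323.7, PEPCK-TAg first), and its second probe set gave -0.10 ± 0.63 SE. Tipin rose 5.65-fold and is among the 5 rises, though it is a protein of the replication fork and not an established PP2A partner. Strn3, a striatin that serves as a PP2A B-type subunit, rose 2.25-fold. The inhibitor Set gave 0.60 ± 0.25 SE (adjusted p = 0.165) and 0.54 ± 0.39 SE at its tested probe sets, and the activator Ptpa 0.05 ± 0.30 SE and 0.16 ± 0.44 SE.

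Among 21 tested probe sets of PP2A substrates 2 rose (9.52%, about the background share) and 0 fell, with a median of -0.06. The pocket protein Rbl1 read 534.0 and 375.4 in PEPCK-TAg liver and 39.7 and 51.4 in wild-type liver (3.31 ± 0.32 SE, adjusted p = 0.00216). The transcription factor Myc read 74.9 and 53.7 in PEPCK-TAg liver and 9.7 and 5.5 in wild-type liver, under the floor, at least 5.99-fold higher (2.58 ± 0.46 SE, adjusted p = 0.0167). The groups did not overlap in 6 probe sets of this list that were higher and 6 that were lower, or 28.6% each. Over all probe sets tested the shares were 33.3% higher and 26.5% lower, so the list lay near the background.

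Of 21 tested probe sets of genes related to PP1, 4 rose (19%) and 0 fell, with a median of 0.32. Pygb, the brain form of glycogen phosphorylase, a PP1 substrate, read 353.6 and 373.7 in PEPCK-TAg liver and 16.7 and 22.4 in wild-type liver (4.23 ± 0.32 SE, adjusted p = 0.00115). Nek2, a centrosomal kinase that PP1 restrains, rose 3.18-fold, and Ddit3, the stress factor CHOP that induces Ppp1r15a, rose 4.20-fold. Ppp1r15a itself overlapped between the groups, as given above.

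Of 13 tested probe sets of the calcineurin pathway 2 rose (15.4%) and 0 fell, with a median of 0.20. Rcan3, of the family of calcineurin inhibitors, read 62.0 and 56.5 in PEPCK-TAg liver and 7.7 and 5.5 in wild-type liver, at least 5.59-fold higher. Dyrk1a, a kinase that opposes calcineurin on NFAT factors, rose 2.79-fold. Rcan1, whose transcription calcineurin drives, read 437.0 and 333.8 in PEPCK-TAg liver and 419.7 and 343.9 in wild-type liver (0.01 ± 0.27 SE).

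Of 16 tested probe sets of MAP kinases and their upstream kinases and RAS genes 1 rose (6.25%, under the background share) and 0 fell, with a median of -0.07. It was a probe set of Nras, at 563.9 and 582.0 in PEPCK-TAg liver and 236.3 and 227.5 in wild-type liver (1.31 ± 0.23 SE, adjusted p = 0.0166), and a further Nras probe set gave 0.60 ± 0.31 SE (adjusted p = 0.244). Of the kinases that Dusp8 acts on, Mapk8 (JNK1) gave 0.33 and Mapk14 (p38 alpha) -0.02, and neither passed.

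Phosphatases of other families, not all of them protein phosphatases, gave 6 rises (13%) and 1 fall among 46 tested probe sets, with a median of 0.19. Cdkn3, a phosphatase of the cell cycle kinases, read 287.4 and 185.9 in PEPCK-TAg liver and 4.9 and 1.9 in wild-type liver, at least 21.8-fold higher (4.45 ± 0.39 SE, adjusted p = 0.00162). Cdc25c, which opens mitosis, rose at both of its probe sets, at least 12-fold at 102935_at and 5.49-fold at 102934_s_at. Mtm1, a lipid phosphatase, rose 8.76-fold at 98524_f_at, while its further probe set gave -0.14 ± 0.29 SE. The suffix of 98524_f_at, like that of the Ppp1r2 probe set above, marks probes that may match related transcripts. The transcriptional phosphatase Eya3 read 12.9 and 10.1 in PEPCK-TAg liver and 48.3 and 66.0 in wild-type liver, at least 4.84-fold lower. Cip2a, Rbl1, Tipin, Nek2, Cdkn3 and Cdc25c are known from dividing cells, and the marker sums of proliferating cells given above moved with them. Ptprc, the white cell antigen CD45, which is itself in the myeloid list, and Ptpn22, of lymphoid and myeloid cells, rose too. As given above, 12 of 19 myeloid probe sets rose, while 0 of 7 lymphocyte probe sets rose and 2 fell. The part of these cells in the results was not tested.

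**Figure D5:**
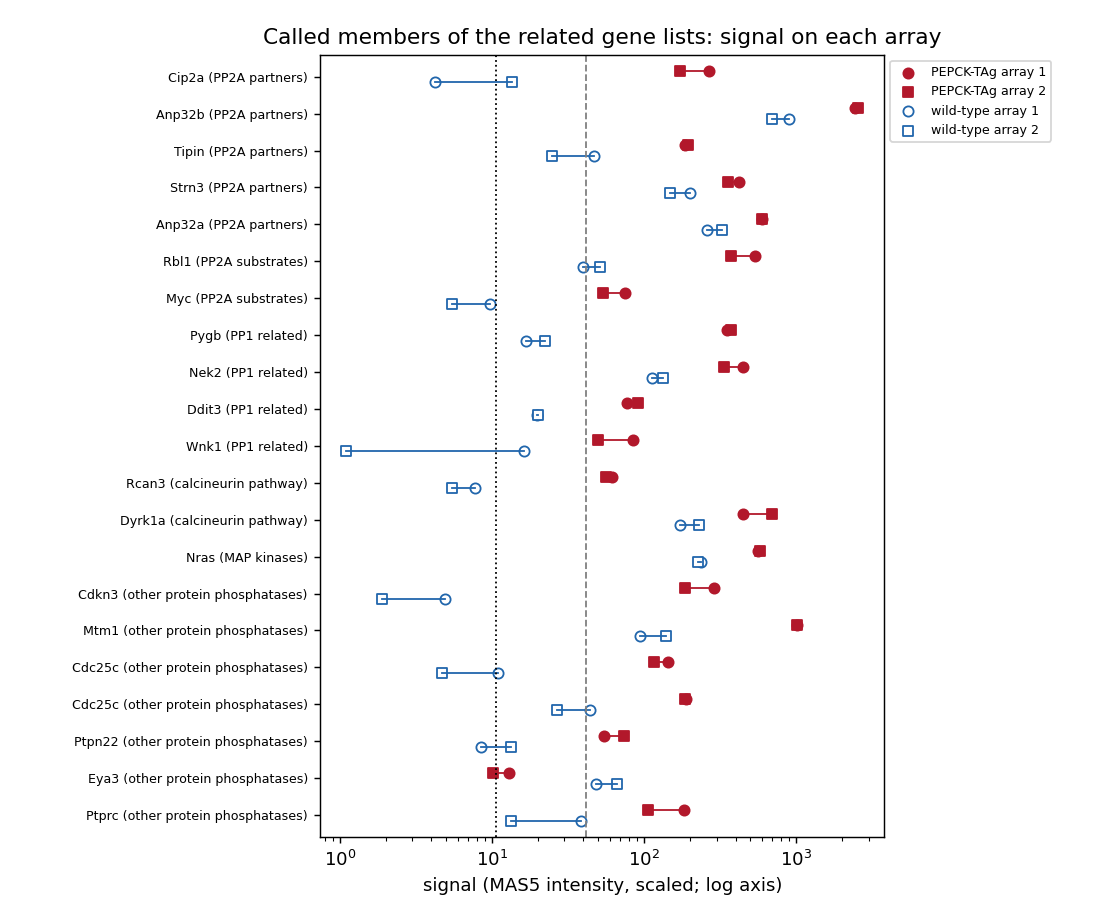
Signal of each called probe set of the related gene lists on a log axis, with filled red marks for the PEPCK-TAg arrays and open blue marks for the wild-type arrays (circles array 1, squares array 2), the floor of 10.6 dotted and the filter level of 41.3 dashed. All but Eya3 lie to the right in PEPCK-TAg liver, and Cip2a, Myc, Wnk1, Rcan3, Cdkn3, Ptpn22 and a Cdc25c probe set have a wild-type array under the floor.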

How the data were processed

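Gene expression was measured in 4 liver samples on MG_U74Av2 arrays. The authors deposited an intensity for every probe set on each array, and the submitters' processing notes name MAS5, with no version or settings. The trimmed means (2%) of the deposited intensities were 248.9 to 249.4, so the arrays had been scaled to a common level. Here each array was scaled to the mean of these, low signals were set to the 20th percentile (10.6) and log2 was taken. The floor shrinks the fold of dim probe sets. The filter level was the 40th percentile (41.3). The test was limma 3.58.1, run in R 4.3.3 (eBayes with an intensity trend, two-sided, no block, 6.6 degrees of freedom), adjusting over all 7877 probe sets tested, and the code was tested on simulated data. With 2 arrays a side, the smallest p of an exact permutation test is 0.333. The number of arrays limits the precision.

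Gene names came from the platform's annotation (10855 probe sets with 1 symbol, 396 with several and 1237 with none, array controls included), and all 48 members matched the RefSeq table. One further probe set, which carries a phosphatase symbol and a second symbol, was left out. Named were all PP2A, calcineurin and Ppp4 to Ppp6 probe sets, every called member, the smallest p-values of the other classes and genes whose probe sets disagreed, and all remaining members followed. In related lists, up to 3 called members per direction were to be named, and Strn3, Anp32a, Mapk8, Mapk14, Ptprc, Ptpn22, Set, Ptpa and Rcan1 were added after their values were seen. The members and lists were chosen with earlier results of these data known. Alternatives covered normalization, floor, filter, left-out arrays, replicate and batch blocks, the variance trend and the brightest probe set. Scanner type as a block was added after the data were seen. Protein sequences were not used here.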

Additional observations from a re-analysis of the deposited data

How the results depend on the processing

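The members called (4 higher, 1 lower) gave 0 to 8 higher and 0 to 2 lower with an array left out, 0 and 0 without either PEPCK-TAg array and 8 and 2 without wild-type 1. With the station of the fluidics as a block the members gave 0 calls in either direction. No probe set of the whole table passed limma's test there, 1432 probe sets passed an unadjusted p of 0.05 and 5 members (4 higher, 1 lower) did so. With no filter 1 was higher, Dusp8 161171_at, and 1 lower, Ppp1r1a, whose PEPCK-TAg arrays are both at the floor. In that run 165 of all 12422 probe sets passed (1.33%). With a filter at the 60th percentile 2 were higher, since Dusp8 went untested, and 906 of 5381 probe sets passed in all (16.8%). The replicate numbers are not said to pair animals (deviations of same-numbered arrays correlated at 0.253). With the replicate number as a block 7 were higher and 2 lower (1873 calls in all against 985), and with the block Ppp1cb, Ppp2cb, Ppp1r14b and Ppp3r1 passed too.

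The PP2A median of 0.45 was 0.22 with a floor at the 40th percentile, 0.22 with the scan day as a block, 0.14 with scanner type as a block and 0.11 to 0.43 with an array left out. The PP1 median of 0.33 was 0.18 under quantile normalization, 0.04 with no filter and 0.13 with the brightest probe set of each gene. The calcineurin median of -0.13 was -0.35 under quantile normalization, 0.26 with no filter, -0.55 with the station as a block, 0.18 with scanner type as a block and -0.44 to 0.29 with an array left out. The median of Ppp4 to Ppp6, -0.07, was -0.17 under quantile normalization, 0.13 with a filter at the 60th percentile and -0.20 with the brightest probe sets. The Dusp median of 0.28 was 0.19 under quantile normalization, 0.07 with a filter at the 60th percentile, 0.43 with the scan day as a block, 0.48 with scanner type as a block and -0.08 to 0.48 with an array left out. The causes were not tested, apart from the filters, which change the members tested.

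Quantile normalization shifted the median of all probe sets to -0.09 from 0.05. Of 534 single probe set values under the alternatives, 486 kept their side of the threshold or lay within the replicate spread, 20 lost a call, 10 gained a call and 18 moved within the scan day, and no called member changed sign. Ppp2ca lost its call most often, under quantile normalization, a floor at the 40th percentile, no filter and no intensity trend. It also lost the call with PEPCK-TAg 1, PEPCK-TAg 2 or wild-type 2 left out. The station and scanner blocks, where it was lost too, repeat the PEPCK-TAg 2 and wild-type 2 cases. In 22 of the 37 members the sign was the same under every alternative run. Chip lot as a random block could not be fitted.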
